A study of Mus musculus with 2 samples.

Results

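The genes described here encode glycoproteins, laminins and proteoglycans of the extracellular matrix and the lysyl oxidases that crosslink it. They were chosen by symbol for their function in the matrix, with earlier results of these data known, so that shares among them only describe this list. All 40 are among the 18159 gene symbols measured by mRNA-seq in jejunal tunica muscularis, the muscle layers of this segment of the small intestine. The study compared *Dnmt1*-WT with *Dnmt1*-KO mice at the age of 15 days (P15), on a C57BL/6 background. *Dnmt1*-KO mice lack *Dnmt1*, the maintenance DNA methyltransferase, in cells in which Cre is expressed from the *Myh11* promoter, that is, in smooth muscle cells (SMC), while other cells of the tissue keep the gene. Both genotypes carry the Cre-eGFP transgene, and both samples are labelled with the floxed *Dnmt1*lox/lox strain and with a free-text description of the knockout, so that genotypes were taken from the genotype label. Each genotype is represented by 1 library, prepared according to the methods from males and females, whose RNA was combined in a way that is not stated.

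Levels are FPKM, fragments mapped to a gene relative to transcript length and to all mapped fragments, a scale on which genes of different length can be compared within a library. Differences are plain ratios of the *Dnmt1*-KO to the *Dnmt1*-WT level. With 1 library per genotype there is no spread between replicates, no test was possible, and "at least doubled" (a ratio of 2 or more) and "at most halved" (0.5 or less) describe these 2 libraries only. *Dnmt1* itself was at 11.58 FPKM in *Dnmt1*-WT and 7.58 FPKM in *Dnmt1*-KO. The value covers the whole gene, including exons outside the deleted part, and therefore does not measure the deletion.

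The matrix of the gut wall includes basement membranes, among them those around each muscle cell, and the interstitial matrix between cells. Laminin trimers of an alpha, a beta and a gamma chain form the basement membrane network, which nidogens and the heparan sulfate proteoglycans perlecan and agrin connect to the type IV collagen network. In the interstitial matrix, elastin is deposited on a scaffold of fibrillin microfibrils with the help of fibulins and microfibril-associated proteins and is crosslinked by lysyl oxidases, while small leucine-rich proteoglycans (SLRPs) bind collagen fibrils. SMC and fibroblasts both produce these proteins.

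The matrix genes separated by role. Of the 10 elastic fibre and microfibril genes 6, and the lysyl oxidase gene *Lox*, were at least doubled in *Dnmt1*-KO, whereas the laminin chains and other basement membrane genes had ratios from 0.825 to 1.38. Of the 40 genes, all above 0 FPKM in both libraries, 29 had a ratio above 1, beside 50.3% of the 16102 genes above 0 FPKM in both libraries. A ratio of 2 or more was found for 9 of the 40, or 22.5%, beside 11.8% of all genes and 3.61% of the 6420 genes with a geometric mean of 10 FPKM or more, to which most matrix genes belong. Lower levels in *Dnmt1*-KO were found for 11, beside 49.1% of all genes; among the abundant genes 47% were higher and 53% lower. Only *Prelp* was at most halved, beside 4.98% of all genes and 2.41% of the abundant ones. The median log2 ratio of the 40 genes was 0.36, and that of all genes was 0.01. A ratio of 1.5 or more was found for 14 of the 40, beside 19.7% of all and 9.36% of abundant genes, and a ratio at least 1.5-fold below 1 for 2, beside 12.6% and 9.05%, which leaves 24 between these limits.

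**Figure D1:**
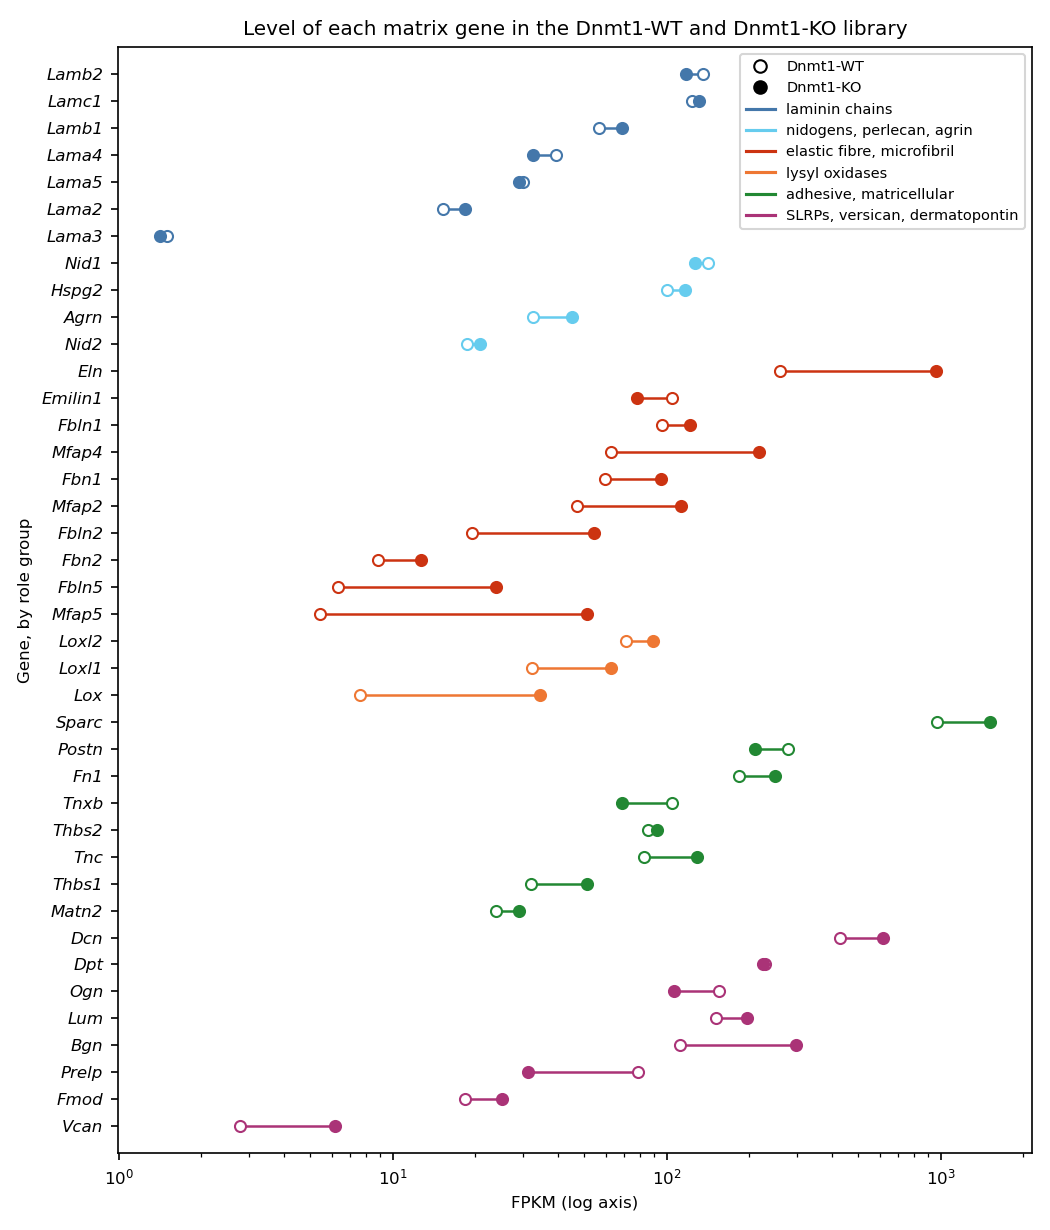
Level of each of the 40 matrix genes in FPKM (log axis) in the *Dnmt1*-WT library (open circle) and the *Dnmt1*-KO library (filled circle), coloured by role group and ordered by the *Dnmt1*-WT level within each group. Lines are long for most elastic fibre genes and short for the laminin chains, and levels extend from 1.41 FPKM for *Lama3* to 1519.57 FPKM for *Sparc*.

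Together the 40 genes summed to 4407.31 FPKM in *Dnmt1*-WT and 6472.54 FPKM in *Dnmt1*-KO, a ratio of 1.47, while the sum over all genes above 0 in both libraries had a ratio of 1.07. A single gene, *Eln*, made up 33.9% of the difference between these sums, and *Sparc* made up 26.8%. The share of the elastic fibre and microfibril genes in the sum was 15.2% in *Dnmt1*-WT and 26.7% in *Dnmt1*-KO. Basement membrane genes, laminin chains included, went from 15.8% to 10.9% of the sum although their own summed level was nearly equal, with 694.95 FPKM in *Dnmt1*-WT and 708.35 FPKM in *Dnmt1*-KO.

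**Figure D2:**
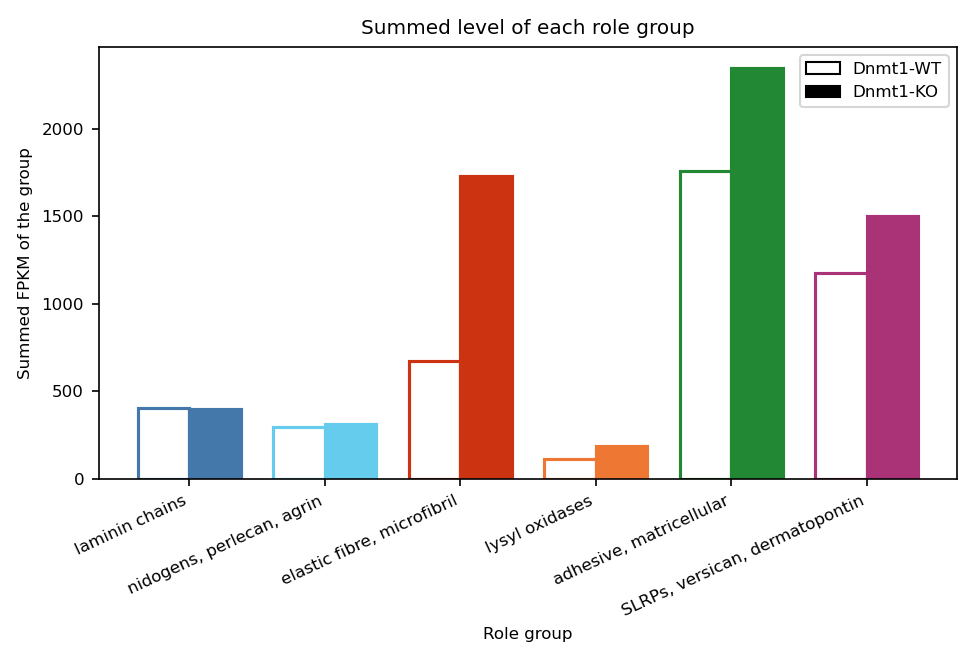
Summed FPKM of each role group in *Dnmt1*-WT (open bars) and *Dnmt1*-KO (filled bars). Laminin chains reached 402.39 and 399.38 FPKM, whereas the elastic fibre and microfibril genes reached 670.62 and 1728.32 FPKM.

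Elastic fibre and microfibril genes had the largest differences. Of the 10 genes, 9 were higher in *Dnmt1*-KO, 6 at least doubled, and the median log2 ratio was 1.37. *Eln* encodes elastin, the core of the elastic fibre, and lies on the minus strand of chromosome 5 of GRCm38 from 134702593 to 134747323. Its level was 259.87 FPKM in *Dnmt1*-WT and 960.54 FPKM in *Dnmt1*-KO, a ratio of 3.70, which placed it second among the 40 genes in *Dnmt1*-KO, after *Sparc*. Among the abundant genes of the whole table, 67 had a higher ratio. *Mfap5* encodes a microfibril-associated glycoprotein that binds fibrillin and lies on chromosome 6 from 122505845 to 122529290. It was low in *Dnmt1*-WT, at 5.44 FPKM, and reached 51.4 FPKM in *Dnmt1*-KO, and its ratio of 9.45 was the highest of the 40. *Mfap2*, the gene of the related microfibril protein, on chromosome 4 from 141010418 to 141015984, had a higher level in both libraries and a smaller difference, from 47.11 to 113.12 FPKM. The level of *Mfap5* relative to that of *Mfap2* was thereby 0.115 in *Dnmt1*-WT and 0.454 in *Dnmt1*-KO.

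The remaining elastic fibre genes that at least doubled were *Mfap4*, *Fbln5* and *Fbln2*. *Mfap4*, on chromosome 11 from 61485431 to 61488900, encodes a glycoprotein that associates with elastic fibres, and its level was 62.83 FPKM in *Dnmt1*-WT and 217.34 FPKM in *Dnmt1*-KO, a ratio of 3.46. *Fbln5* encodes fibulin-5, which brings tropoelastin and lysyl oxidases to microfibrils, lies on chromosome 12 from 101746565 to 101819055 and was at 6.3 and 23.83 FPKM, a ratio of 3.78. *Fbln2*, the gene of fibulin-2 on chromosome 6 from 91212455 to 91272540, had a ratio of 2.78, from 19.47 to 54.11 FPKM. *Fbln1* was the most abundant fibulin gene in both libraries and differed less, with 96.29 and 121.8 FPKM. The fibrillin genes, which encode the backbone of the microfibril, were moderately higher, *Fbn1* with 59.72 and 95.58 FPKM (ratio 1.60) and *Fbn2* with 8.83 and 12.66 FPKM (ratio 1.43). The level of *Eln* relative to that of *Fbn1* differed 2.31-fold between the libraries. The exception in this group was *Emilin1*, which encodes a glycoprotein at the interface of elastin and microfibrils and was at 104.76 FPKM in *Dnmt1*-WT and 77.94 FPKM in *Dnmt1*-KO, a ratio of 0.744.

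Lysyl oxidases oxidise lysine residues of tropoelastin and collagen, the first step of crosslinking. All 3 genes were higher in *Dnmt1*-KO, but by different amounts. *Lox*, on chromosome 18 from 52516067 to 52529867, had the second highest ratio of the 40 genes, 4.53, with 7.63 FPKM in *Dnmt1*-WT and 34.58 FPKM in *Dnmt1*-KO. *Loxl1*, whose product acts on elastin, was at 32.24 and 62.69 FPKM, and its ratio of 1.94 lay just below doubling. *Loxl2*, the most abundant of the 3 in both libraries, was at 70.82 and 88.85 FPKM, a ratio of 1.25. The level of *Loxl2* was 9.28 times that of *Lox* in *Dnmt1*-WT and 2.57 times in *Dnmt1*-KO.

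**Figure D3:**
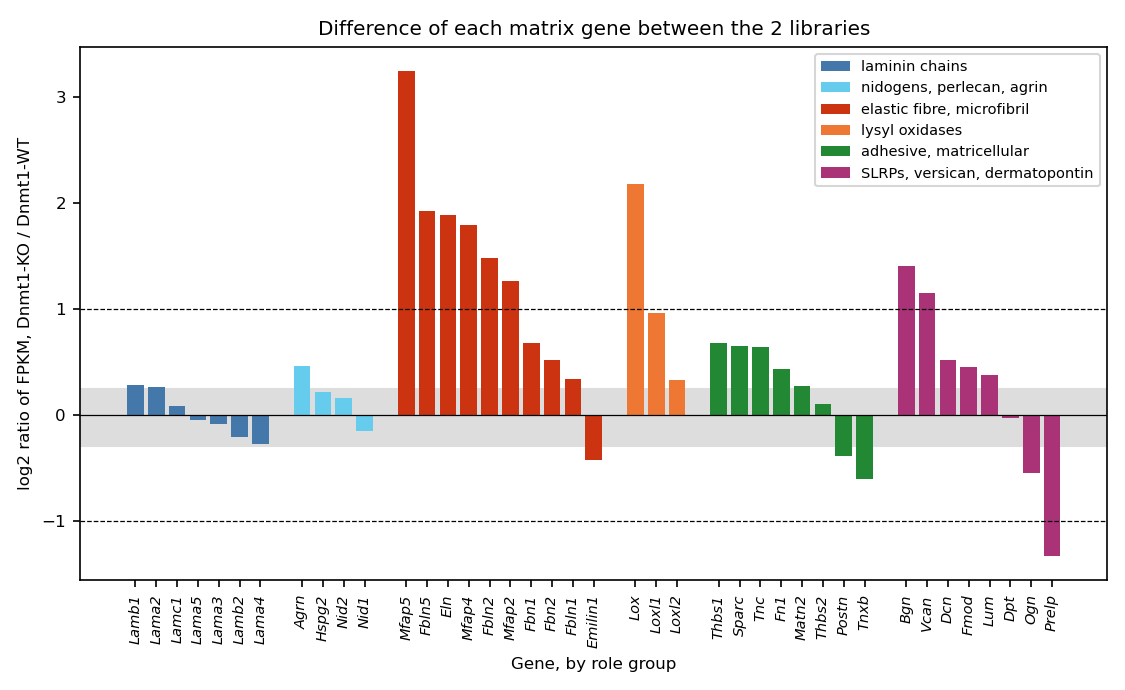
The log2 ratio of FPKM (*Dnmt1*-KO over *Dnmt1*-WT, 1 library each) for each gene, as bars grouped by role, with dashed lines at a ratio of 2 and 0.5 and a grey band from the 25th to the 75th percentile of the abundant genes, -0.29 to 0.25. Bars of the laminin chains end within or close to the band, and 6 elastic fibre genes, *Lox*, *Bgn* and *Vcan* exceed the upper dashed line.

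The sequences before the start sites are shown for a gene of the elastic fibre group, for the SLRP gene with the highest ratio among the 40 and for the halved *Prelp*, because DNMT1 maintains methylation at CpG dinucleotides, which are in capitals. They are the bases up to the RefSeq start site in GRCm38.p6, or up to the first annotated transcribed base for *Prelp*, on the coding strand, 5′ to 3′. The *Fbln5* sequence lies on the minus strand at chr12:101819120-101819369, that of *Bgn* on the plus strand at chrX:73483351-73483600 and that of *Prelp* on the minus strand at chr1:133921415-133921651.
Fbln5: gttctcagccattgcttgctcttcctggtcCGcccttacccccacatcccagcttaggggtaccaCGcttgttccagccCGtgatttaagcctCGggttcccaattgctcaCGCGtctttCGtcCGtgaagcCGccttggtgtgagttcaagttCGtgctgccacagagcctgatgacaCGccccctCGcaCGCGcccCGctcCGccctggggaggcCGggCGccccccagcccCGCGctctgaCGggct
Bgn: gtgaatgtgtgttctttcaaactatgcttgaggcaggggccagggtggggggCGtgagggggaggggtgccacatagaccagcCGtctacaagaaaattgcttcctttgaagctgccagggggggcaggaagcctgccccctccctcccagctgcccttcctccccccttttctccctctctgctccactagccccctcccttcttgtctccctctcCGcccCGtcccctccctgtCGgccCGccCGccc
Prelp: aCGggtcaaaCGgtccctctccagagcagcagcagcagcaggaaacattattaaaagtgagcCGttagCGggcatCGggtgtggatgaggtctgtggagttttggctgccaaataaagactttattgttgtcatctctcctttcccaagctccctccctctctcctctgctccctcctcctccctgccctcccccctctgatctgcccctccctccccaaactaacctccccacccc

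A window of 250 bases before a RefSeq start site was given for 24 of the 40 genes, without *Eln*, *Mfap4*, *Mfap5* and *Lox*. The windows of *Lama2*, *Agrn*, *Sparc*, *Fbn1*, *Fbln2*, *Mfap2* and *Emilin1* lie inside the annotated gene and not before it. In *Fbln5* the window held 21 CpG, the highest number among the 24, in *Bgn* 7 and in *Prelp* 5. Across the 5 genes with a window that at least doubled, which also include *Mfap2*, *Fbln2* and *Vcan*, the number ranged from 7 to 21 with a median of 10, and across the remaining 19 from 0 to 20 with a median of 4. The median over 13303 listed genes was 14, so that both medians were below it. A GC box (GGGCGG, on either strand, which contains 1 of the counted CpG) was in the window of 5 of these 5 genes, 7 of the 19 and 53.3% of all genes. The 7 basement membrane genes with a window, laminin chains included, were among the 19. Their windows held 0 to 20 CpG with a median of 14, above that of the doubled genes, and 5 of the 7 had a GC box. The CArG box, the SRF binding motif, searched by its usual consensus, was found on either strand in the window of *Lama2* alone among the 24, and in 1.28% of all windows. TATAAA was in 4 of the 24 windows, none of them of a doubled gene, and in 8.07% of all. TGANTCA, the AP-1 motif, was in the window of *Tnxb* alone among the 24 and in 4.97% of all. These matches describe the sequence only, and methylation was not analysed here.

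Laminin chain genes had the narrowest range of ratios among the 6 role groups. Of the 7 chains, 3 were higher and 4 lower in *Dnmt1*-KO, with ratios from 0.825 to 1.22 and a median log2 ratio of -0.05. These directions depended on transcript length. Centred on genes of similar length, *Lama3*, *Lama5* and *Lamb2* changed from lower to higher, *Lamb2* only to a log2 ratio of 0.00, and the median was 0.20. *Lamc1*, the gamma chain common to most laminins, was at 124.25 FPKM in *Dnmt1*-WT and 131.69 FPKM in *Dnmt1*-KO, a direction that turned when levels were divided by the FPKM sum. Beta chains differed in opposite directions, with *Lamb1* at 56.65 and 68.94 FPKM and *Lamb2* at 135.31 and 117.5 FPKM. Of the alpha chains, which bind the cell surface receptors, *Lama4* was highest in both libraries, at 39.4 and 32.52 FPKM, followed by *Lama5* at 30.02 and 28.97 FPKM and *Lama2* at 15.26 and 18.35 FPKM. *Lama3*, a chain of epithelial basement membranes, was the lowest of the 40 genes, at 1.5 and 1.41 FPKM. Summed levels were 86.18 and 81.25 FPKM for the 4 alpha chains, and 191.96 and 186.44 FPKM for the 2 beta chains, so that the proportion of alpha to beta to gamma chain RNA differed little. Of laminin genes that are not among the 40, *Lama1* was low, at 2.55 and 1.75 FPKM, and so were *Lamb3*, at 0.85 and 0.73 FPKM, and *Lamc3*, at 1.84 and 2.38 FPKM.

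The linkers and proteoglycans of the basement membrane had ratios from 0.898 to 1.38, and none of the 4 at least doubled. *Nid1* was at 141.05 FPKM in *Dnmt1*-WT and 126.6 FPKM in *Dnmt1*-KO, and *Nid2* at 18.71 and 20.84 FPKM. *Hspg2*, which encodes perlecan, was at 100.15 and 116.52 FPKM. *Agrn*, the gene of agrin, a ligand of dystroglycan, had the highest ratio among the 11 basement membrane genes, with 32.65 and 45.01 FPKM.

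Adhesive and matricellular glycoproteins, which link cells to the matrix or alter that contact, were split. Of the 8 genes, 6 were higher and 2 lower in *Dnmt1*-KO, none at least doubled, and the median log2 ratio was 0.35. *Sparc*, whose product binds collagen, was the most abundant of the 40 genes in both libraries, at 966.14 and 1519.57 FPKM, a ratio of 1.57. *Thbs1* and *Tnc*, genes of thrombospondin-1 and tenascin-C, had similar ratios of 1.60 and 1.56, from 31.94 to 51.11 FPKM and from 83 to 129.5 FPKM. *Fn1*, the gene of fibronectin, was at 183.62 and 247.88 FPKM (ratio 1.35), *Matn2* at 23.92 and 28.98 FPKM and *Thbs2* at 85.59 and 92.02 FPKM. The lower genes were *Postn*, encoding periostin, at 276.44 and 210.82 FPKM (ratio 0.763) and *Tnxb*, encoding tenascin-X, at 104.65 and 68.79 FPKM (ratio 0.657). The order of the tenascin genes was therefore reversed, with a *Tnc* level 0.793 times that of *Tnxb* in *Dnmt1*-WT and 1.88 times in *Dnmt1*-KO.

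The proteoglycan group held both a doubled SLRP and the halved *Prelp*. *Bgn*, the gene of biglycan on chromosome X from 73483602 to 73495933, was at 112.17 FPKM in *Dnmt1*-WT and 297.26 FPKM in *Dnmt1*-KO, a ratio of 2.65. *Dcn*, the gene of decorin and the most abundant SLRP gene in both libraries, was at 427.74 and 613.54 FPKM, a ratio of 1.43. The level of *Bgn* relative to that of *Dcn* was 0.262 in *Dnmt1*-WT and 0.485 in *Dnmt1*-KO. *Lum*, encoding lumican, was at 151.4 and 196.3 FPKM, and *Fmod*, encoding fibromodulin, at 18.4 and 25.09 FPKM. *Prelp*, which encodes an SLRP that anchors basement membranes to the underlying connective tissue, lies on the minus strand of chromosome 1 from 133910304 to 133921414. Its level of 78.54 FPKM in *Dnmt1*-WT and 31.31 FPKM in *Dnmt1*-KO gave a ratio of 0.399, and 51 of the 6420 abundant genes had a lower one. *Ogn*, the gene of osteoglycin, was lower as well, at 155.67 and 106.73 FPKM. *Dpt*, encoding dermatopontin, a binding partner of decorin, was at 229.05 and 224.67 FPKM, with a direction that depended on the scaling. The large chondroitin sulfate proteoglycan gene *Vcan*, on chromosome 13 from 89655312 to 89742509, was low in both libraries, at 2.78 and 6.18 FPKM, and its ratio of 2.22 rests on these low levels.

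Transcript length moved with the ratio and is given here because many matrix transcripts are long. Across the abundant genes with a known length, Spearman's rho between the log2 ratio and transcript length was -0.37, a description across genes, which are not independent and share both libraries. Abundant genes under 1500 nt had a median log2 ratio of 0.20, and those of 6000 nt or more had one of -0.27. The 14 matrix genes of 6000 nt or more, among them *Hspg2* with 14187 nt, had a median of 0.24. Centred on genes of similar length, the median log2 ratio of the 40 genes was 0.48 in place of 0.36, that of the laminin chains 0.20 in place of -0.05, and the 6 doubled elastic fibre genes kept a log2 ratio between 1.04 for *Mfap2* and 3.11 for *Mfap5*. *Lama3*, *Lama5*, *Lamb2* and *Nid1* then changed from lower to higher, although *Lamb2* stood at a centred log2 ratio of 0.00.

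**Figure D4:**
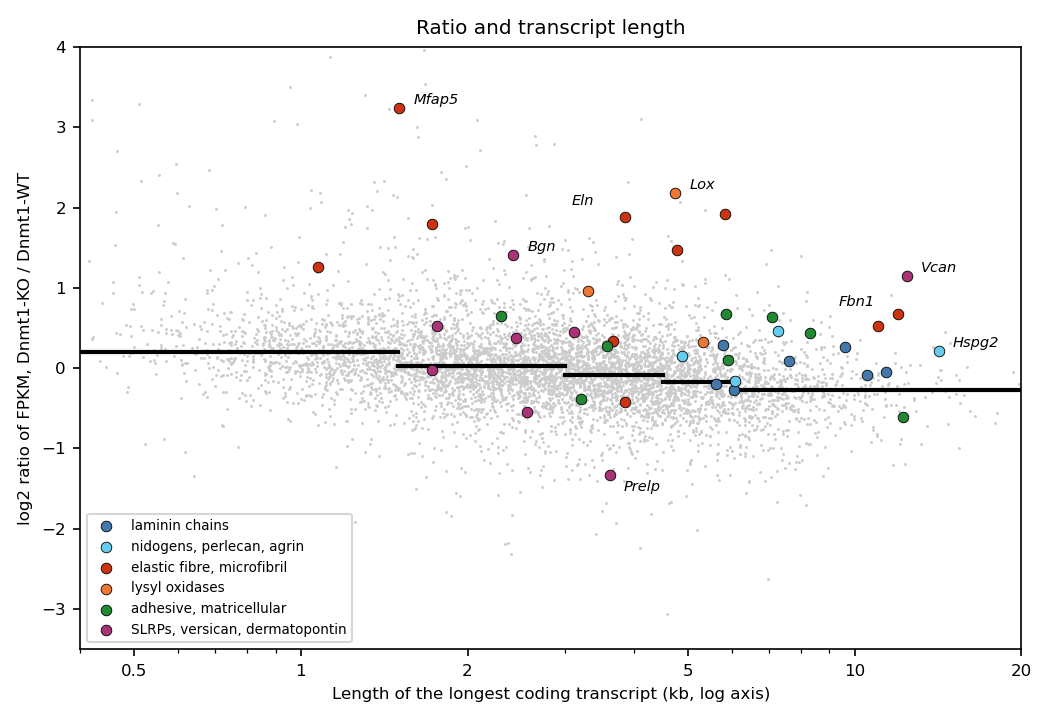
The log2 ratio of FPKM (*Dnmt1*-KO over *Dnmt1*-WT) against the length of the longest coding transcript in kb (log axis), for the 40 matrix genes (coloured by role) and the abundant genes (grey points; genes outside the axes are not drawn). Black lines are medians of the abundant genes in 5 classes of length, which go from 0.20 for the shortest to -0.27 for the longest.

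Genes of the same pathway outside the 40 were compared through lists by function. Of 70 other listed matrix glycoprotein, laminin and proteoglycan genes, 66 were above 0 FPKM in both libraries. Among these, 35 were higher and 31 lower in *Dnmt1*-KO, 7 at least doubled, 4 were at most halved, and the median log2 ratio was 0.20. The doubled share of 10.6% was near the 11.8% of all genes, of which 4.98% were at most halved. Of those at 10 FPKM or more in one library, the highest ratios after adding 1 FPKM to both levels were those of *Srgn* (5.28 and 21.58 FPKM), a proteoglycan of blood cell granules, *Tgfbi* (61.04 and 115.39 FPKM) and *Mgp* (440.84 and 801.29 FPKM), an inhibitor of calcification. The lowest were those of *Tinagl1* (210.59 and 85.66 FPKM), *Frem2* (16.03 and 7.03 FPKM) and *Sparcl1* (959.88 and 469.88 FPKM), a relative of *Sparc* that differed in the opposite direction. Among partners of the elastic fibre genes that are not among the 40, the short fibulin and latent TGF-beta binding protein genes were not at least doubled, with *Efemp2*, the gene of fibulin-4, at 44.87 and 58.09 FPKM, *Efemp1* at 48.56 and 44.34 FPKM, *Ltbp4* at 166.64 and 203.19 FPKM, *Ltbp3* at 52.97 and 60.44 FPKM, and *Ltbp1* at 30.05 and 27.75 FPKM. *Ltbp2* was nearly halved, at 30.55 and 15.79 FPKM (ratio 0.517), opposite in direction to *Eln*.

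Collagen genes, the group most like these, had 29 higher and 13 lower genes among the 42 above 0 FPKM in both libraries, with a median log2 ratio of 0.29, 4 at least doubled and 2 at most halved. *Col1a1* was at 700.41 and 1517.78 FPKM (ratio 2.17), and the other doubled and the halved collagen genes were under 10 FPKM in both libraries. Of those at 10 FPKM or more in one library, *Col23a1* was lowest, at 18.62 and 9.7 FPKM (ratio 0.521). The sum over collagen genes had a ratio of 1.49, close to the 1.47 of the 40 genes. Of 26 matrix receptor genes, 16 were higher, 10 were lower, 3 at least doubled, 0 were at most halved, and the median was 0.21. *Itga5*, a chain of the fibronectin receptor, was at 53.75 and 112.72 FPKM, *Itga8* at 5.6 and 12.81 FPKM and *Itga6*, a chain of laminin receptors, at 8.1 and 11.88 FPKM. The collagen receptor genes *Itga1* (57.77 and 32.04 FPKM) and *Ddr2* (61.64 and 35.4 FPKM) and the tenascin receptor gene *Itga9* (52.54 and 32.24 FPKM) had the lowest ratios. Enzymes that build glycosaminoglycan chains on proteoglycans were higher in 22 and lower in 11 of 33 cases, 1 at least doubled and 1 at most halved, with a median of 0.19. Doubled shares were 9.52% for the collagen, 11.5% for the matrix receptor and 3.03% for the enzyme genes, beside 11.8% of all genes. *Hs3st1* (6.06 and 14.21 FPKM) had the highest ratio and *Chst15* (26.82 and 11.89 FPKM) the lowest, while *Ugdh*, which supplies the precursor UDP-glucuronate, was at 11.66 and 20.9 FPKM.

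**Figure D5:**
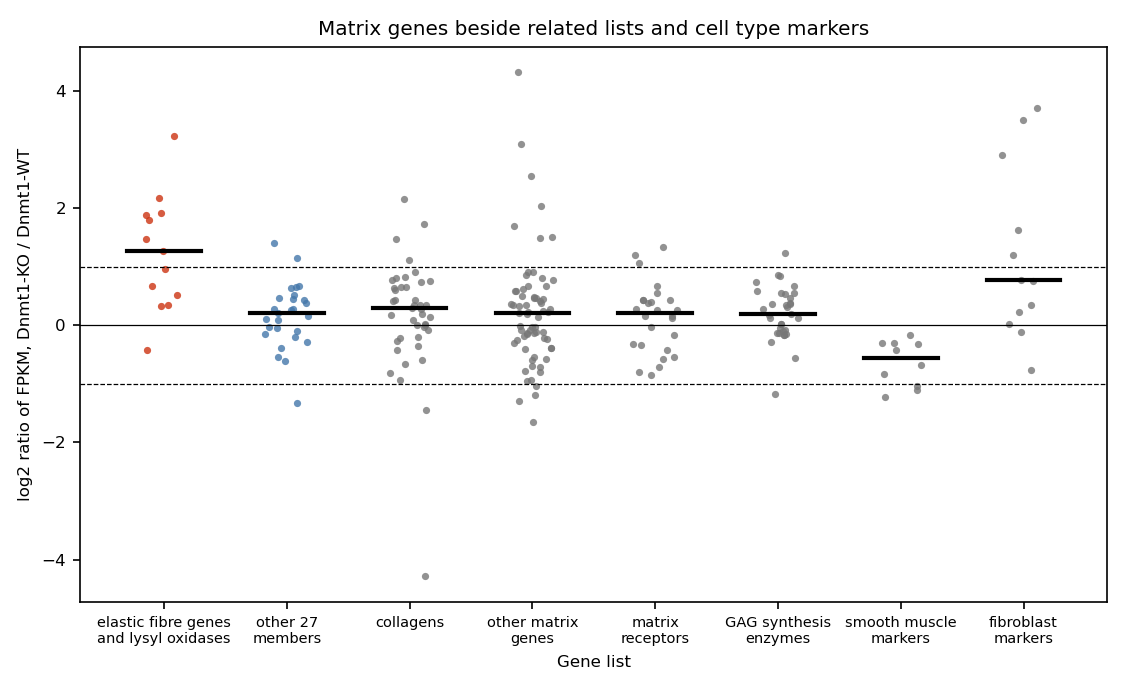
The log2 ratio of FPKM (*Dnmt1*-KO over *Dnmt1*-WT) of single genes (points) in the elastic fibre and lysyl oxidase groups, the other 27 matrix genes and 6 related lists, with the median of each list as a black line and dashed lines at a ratio of 2 and 0.5. The median was 1.26 for the elastic fibre and lysyl oxidase genes, 0.22 for the other 27 and -0.55 for smooth muscle markers.

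The labelled tissue was checked against markers, none of which is among the 40 genes. All 10 smooth muscle markers were detected, from 18.18 FPKM for *Myocd* to 5408.13 FPKM for *Acta2*, and all 10 were lower in *Dnmt1*-KO, with a summed level of 17017.1 FPKM in *Dnmt1*-WT and 12272.9 FPKM in *Dnmt1*-KO. In whole tissue, fewer cells of a type and less RNA per cell cannot be told apart. Of 12 markers of fibroblasts and PDGFRA+ cells, 10 were higher and 5 at least doubled. The 12 summed to 624.82 and 846.97 FPKM, with *C3* (345.95 and 405.33 FPKM) as the largest part. The 5 doubled markers were *Scara5* (0.76 and 9.98 FPKM), *Ly6a* (4.8 and 54.34), *Pi16* (0.77 and 5.78), *Clec3b* (19.24 and 59.58) and *Cd34* (28.35 and 64.94). *Pdgfra*, at 68.95 and 40.72 FPKM, and *Tcf21*, at 40.68 and 37.56 FPKM, were lower. Endothelial markers were higher in 10 of 10 cases, with sums of 79.07 and 204.45 FPKM. The 5 pericyte markers summed to 656.78 and 238.36 FPKM, with 4 of them lower, of which *Rgs5* (434.65 and 91.95 FPKM) made up most of the difference, and *Notch3* (2.75 and 10.77 FPKM) higher.

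Markers of further cell types also differed. Of 8 adipocyte genes, 7 at least doubled, with sums of 110.62 and 1208.12 FPKM that were mostly *Fabp4* (103.72 and 874.84 FPKM), and *Lep* was listed at 0 in *Dnmt1*-WT. Ratios of these 7 ranged from 4.24 to 133 with a median of 55.0, most of them from low *Dnmt1*-WT levels. Examples were *Cfd* (2.61 and 182.62 FPKM) and *Adipoq* (0.85 and 46.71 FPKM). All 7 listed macrophage markers (93.68 and 310.49 FPKM in sum) and all 6 leukocyte markers (23.71 and 76.84 FPKM) were higher, and so were 6 of 8 epithelial markers (89.38 and 187.1 FPKM). The sums were 376.08 and 477.71 FPKM for 7 mesothelial markers, of which 4 were higher and *Krt19* (96.08 and 188.37 FPKM) made up most of the difference, 82.75 and 115.44 FPKM for 6 glial markers, of which 4 were higher and *Gfap* (4.78 and 35.36 FPKM) made up most of the difference, 527.18 and 623.74 FPKM for 6 neuronal markers, of which 5 were higher, 123.85 and 104.29 FPKM for 3 markers of interstitial cells of Cajal, all of them lower, and 105.53 and 64.71 FPKM for 5 listed skeletal muscle markers, of which 4 were higher and *Ckm* (96.73 and 41.41 FPKM) was lower. No marker other than *Lep* was at 0 FPKM in either library. The part of any of these cell types in the levels of the matrix genes was not tested.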

How the data were processed

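Total RNA of jejunal tunica muscularis was sequenced for the authors at LC Sciences from TruSeq libraries, with 1 library for each of 2 genotypes. The submitters' processing notes name TopHat 1.4.1, Cufflinks 2.0.2 and mm10. The deposited values are FPKM per gene symbol, rounded to 2 decimals, with the number of transcript variants found. The table used gives no read counts per gene, and no counting interval was computed. The study lists the reads of each library, more for *Dnmt1*-WT than for *Dnmt1*-KO, and these totals were not used here. The lowest FPKM above 0 was 0.03. The authors' column of ratios was not used.

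Samples were grouped by the genotype label. Because each group has 1 library, no test was made. Ratios were plain ratios without rescaling. The members and lists were chosen with earlier results of these data known, and gene functions come from general knowledge. Any of the 40 genes could be named, and so could, from each other list, the top 3 and bottom 3 genes by the ratio after adding 1 FPKM to both levels, provided that one library reached 10 FPKM (5 FPKM for glycosaminoglycan enzymes), partners of the 40 genes in the same complex, marker genes and *Dnmt1*. Of the selected genes, some are left unnamed, and the highest and the lowest collagen gene stand for that list.

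GENCODE release M21 (GRCm38) gave positions, transcript lengths and GC content. Of the 18159 symbols, 17204, or 94.7%, are gene names there. Promoter windows came from RefSeq (GRCm38.p6). The alternatives were other scalings, pseudocounts of 0.1 and 1 FPKM, filters on low values, centring in 10 bins of transcript length or GC content, and folds of 1.5 and 3. Counting and centring were tested on simulated data. Python 3.11.15, numpy 2.4.6, pandas 2.3.3 and matplotlib 3.10.9 were used.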

Additional observations from a re-analysis of the deposited data

How the results depend on the processing

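No paired analysis was possible because each genotype has 1 library, and for the same reason no library could be left out. A ratio was taken as moved when it shifted by more than 1.5-fold, since no replicate spread exists, and none of the 40 genes did so under any alternative. Filters leave each ratio as it is, and each scaling shifted all genes alike by less than this limit. Only the pseudocounts and centrings could therefore have moved a gene. Dividing by the FPKM sum shifted the median log2 ratio of genes at 1 FPKM or more in both libraries from -0.03 to -0.13, and *Lamc1* then changed from higher to lower. *Dpt* changed from lower to higher with median, upper quartile and GC centring. The number of genes lower in *Dnmt1*-KO was 11, and 7 after centring on transcript length, where *Lama3*, *Lama5*, *Lamb2* and *Nid1* changed direction. That alternative also put *Loxl1* past doubling, and a pseudocount of 1 took *Vcan* below it. The median log2 ratio of the laminin chains was -0.05, 0.20 after length centring and 0.02 without *Lama3*, which is under 10 FPKM in both libraries, and stayed below 0 under the remaining alternatives. With a fold of 1.5 in place of 2, 14 genes were counted as higher and 2 as lower, and with a fold of 3, 5 and 0. Counts of doubled genes were 8 to 10 under the scalings, pseudocounts, filters and centrings. Counting error was not computed, and the spread between animals cannot be had from 1 library per genotype at any depth.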

Other observations

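The deposited table also gives the number of transcript variants found for each gene, without naming them. It was equal in both libraries for 31 of the 40 matrix genes, lower in *Dnmt1*-KO for 5 and higher for 4, so that 22.5% differed, beside 20.7% of the 6420 abundant genes. *Vcan*, whose chondroitin sulfate attachment regions are alternatively spliced, had 2 variants in *Dnmt1*-WT and 5 in *Dnmt1*-KO. *Loxl2* had 5 and 3, *Fbln5* 2 and 3, and *Tnxb* 6 and 7. *Fn1*, with 6 in each library, and *Eln*, with 1 in each, did not differ in this number. FPKM of single variants were not analysed here.

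Of the 7 other matrix genes that at least doubled, all except *Srgn* were under 10 FPKM in both libraries, and they were picked after their values were seen. *Srpx2* was at 0.09 FPKM in *Dnmt1*-WT and 1.8 FPKM in *Dnmt1*-KO, *Reln* at 0.22 and 1.88 FPKM, *Emilin2* at 1.74 and 4.88 FPKM, and the SLRP gene *Omd* at 2.59 and 7.38 FPKM. The multimerin genes, which are expressed in endothelium, were at 1.08 and 6.35 FPKM for *Mmrn1* and at 2.44 and 7.91 FPKM for *Mmrn2*. *Comp* and *Epyc* were listed at 0 in *Dnmt1*-WT and at 0.24 and 0.39 FPKM in *Dnmt1*-KO.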
